A study of Mus musculus with 6 samples.

Results

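The genes described here encode A20, the 3 proteins named A20-binding inhibitors of NF-kB (ABINs) and 4 negative regulators of inflammatory signalling. They were measured by RNA-seq in activated mouse B cells with and without the RNA-binding protein hnRNPL. The members were the table entries named Tnfaip3 (A20), Tnip1 (ABIN-1), Tnip2 (ABIN-2), Tnip3 (ABIN-3), Cyld, Otulin, Zc3h12a and Traf3, which made 8 of 55421 genes listed and 8 of 17640 genes tested. Tnip3 was chosen because its normalized count was much higher in hnRNPL-deficient than in WT libraries, and the others as its relatives. The genotype differences of the 8 members are therefore given below as descriptions, and where limma calls of members are given they are no independent test. The RNA came from splenic B cells of C57BL6/J mice of both sexes, older than 6 weeks, that were cultured for 24 h with 5 µg/ml LPS and 5 ng/ml IL-4 and then sorted as GFP+. There were 3 WT libraries from mice with Rosa mT/mG and CD21-cre, and 3 hnRNPL-deficient libraries from mice that also had the floxed Hnrnpl allele on both chromosomes (Hnrnpl F/F). Both groups therefore carried the CD21-cre transgene, which is active in mature B cells, and the Rosa mT/mG reporter, which turns on GFP where Cre has acted. All 6 libraries were activated, so the levels of unstimulated B cells were not measured.

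NF-kB signalling downstream of Toll-like receptors, CD40 and TNF receptors is built on ubiquitin chains that recruit kinases, and it is switched off again by proteins that bind, cut or replace those chains. A20 is a ubiquitin-editing enzyme whose own gene is an NF-kB target, and the ABINs are adaptors named for binding A20. The RNA levels given here do not show whether mouse ABIN-3 binds ubiquitin or restrains NF-kB. CYLD and OTULIN are deubiquitinases that remove linear chains, TRAF3 restrains the non-canonical pathway by keeping the kinase NIK low, and Regnase-1, the product of Zc3h12a, is an endonuclease that degrades inflammatory mRNAs. Loss of A20 in B cells is known to heighten their response to activation.

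The libraries held between 40395186 and 75180749 reads on genes. Hnrnpl, the targeted gene, had normalized counts of 24371, 25580 and 24174 in the WT libraries and of 2178, 1519 and 1297 in the hnRNPL-deficient ones, a log2 difference of -3.93 ± 0.17 (SE; limma, adjusted p = 2.23e-05). The B-cell markers Cd79a, Cd79b, Ms4a1, Cr2 and Pax5 were abundant in every library. By Xist and Ddx3y, the third WT and the second hnRNPL-deficient library came from female mice and the other 4 from males. Of the 6 macrophage and monocyte markers, Lyz2, Cd14 and Csf1r did not exceed 6.85 normalized counts in any library, and Itgam did not exceed 18.6. Cd68 had 345 to 410 in WT and 422 to 424 in hnRNPL-deficient libraries. Adgre1 (F4/80) had 236 to 315 in WT and 1217 to 1369 in hnRNPL-deficient libraries (log2 difference 2.24, limma, adjusted p = 1.39e-04). The summed macrophage list was 605 to 741 in WT and 1662 to 1805 in hnRNPL-deficient libraries, and its part in the results below was not tested. The neutrophil markers S100a8 and S100a9 and the natural killer marker Ncr1 were at 0 in all 6 libraries. Of the 4 dendritic cell markers, Itgax and Siglech were at 0 throughout and Flt3 had 393 to 514 normalized counts. Xcr1 was low, at 8.12 to 9.51 in WT and 21.6 to 27.4 in hnRNPL-deficient libraries, and was called higher (log2 difference 1.35, limma, adjusted p = 0.0370). The part of the T-cell, plasma cell, natural killer and dendritic cell markers in the results below was not tested either.

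The promoters of the A20 gene and the 3 ABIN genes are shown because the gene of A20 and several ABIN genes are known NF-kB targets, and so that the family can be compared by eye. Each stretch holds 250 bases before and 50 bases after the start of the transcript in RefSeq (GRCm38.p6), read 5′ to 3′ on the strand of the gene, with matches to the NF-kB consensus motif (10 bases, both strands searched) in capitals. All 8 members were found in RefSeq, with 9 promoters in all. The Tnip3 promoter lay at chr6:65590148-65590447 on the plus strand, the Tnfaip3 promoter at chr10:19015361-19015660 on the minus strand, the Tnip1 promoter at chr11:54962891-54963190 on the minus strand and the Tnip2 promoter at chr5:34513930-34514229 on the minus strand.
Tnip3: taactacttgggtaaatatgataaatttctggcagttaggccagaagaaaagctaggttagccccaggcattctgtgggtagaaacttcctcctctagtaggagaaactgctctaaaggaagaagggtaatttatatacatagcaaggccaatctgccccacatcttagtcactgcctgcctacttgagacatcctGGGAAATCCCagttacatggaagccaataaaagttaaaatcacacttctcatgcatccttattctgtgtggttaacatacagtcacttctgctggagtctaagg
Tnfaip3: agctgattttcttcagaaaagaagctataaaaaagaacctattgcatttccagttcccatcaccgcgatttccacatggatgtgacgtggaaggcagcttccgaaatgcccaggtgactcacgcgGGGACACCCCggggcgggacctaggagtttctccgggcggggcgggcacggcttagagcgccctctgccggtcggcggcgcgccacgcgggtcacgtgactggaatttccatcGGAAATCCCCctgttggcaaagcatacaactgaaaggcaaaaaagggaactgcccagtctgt
Tnip1: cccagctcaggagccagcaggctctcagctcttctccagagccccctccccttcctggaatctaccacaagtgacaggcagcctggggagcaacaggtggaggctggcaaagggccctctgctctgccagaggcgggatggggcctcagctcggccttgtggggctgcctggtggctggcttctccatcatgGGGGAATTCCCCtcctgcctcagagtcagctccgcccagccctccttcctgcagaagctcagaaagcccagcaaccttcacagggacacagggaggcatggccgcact
Tnip2: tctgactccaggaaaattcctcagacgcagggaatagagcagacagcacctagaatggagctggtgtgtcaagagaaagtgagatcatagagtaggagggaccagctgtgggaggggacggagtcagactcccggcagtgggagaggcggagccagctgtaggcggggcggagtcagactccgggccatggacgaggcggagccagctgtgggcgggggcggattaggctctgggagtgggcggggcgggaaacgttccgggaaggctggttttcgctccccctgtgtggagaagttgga
The Tnip3 promoter held 1 match, which began 54 bases before the start. The Tnfaip3 promoter held 2 matches, 125 and 12 bases before the start, and a second Tnfaip3 start listed by RefSeq held none. The Tnip1 promoter held 3 overlapping matches that began 58, 57 and 56 bases before the start, and the Tnip2 promoter held none. Among the other members, Traf3 had 1 match 10 bases before its start and Cyld 1 match 155 bases before its start, while none was found in the windows of Zc3h12a and Otulin. The motif was present in 5 of 9 member promoters, beside 2779 of 32851 mouse promoters of the same length (8.46%). Since known NF-kB targets are among the members, nothing is read from these shares. A match was found for Tnip3, which was higher in hnRNPL-deficient cells, for Tnfaip3, which was lower, and for Tnip1, whose groups overlapped. A match describes the letters of the promoter and does not show binding.

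Tnip3 (ENSMUSG00000044162.12, chr6:65525313-65634040, plus strand) encodes ABIN-3, the ABIN best known as an inducible protein. Its normalized counts were 13.9, 25.1 and 17.6 in WT cells, and reached 536, 509 and 607 where hnRNPL was deleted. The lowest hnRNPL-deficient library was thus far above the highest WT library. The values came from 12, 29 and 23 reads in WT and from 594, 504 and 443 reads in hnRNPL-deficient libraries, so the WT level carries the larger relative counting error. The means were 18.9 ± 5.68 and 551 ± 50.9 normalized counts (SD, n = 3 each), a ratio of 29.2, and the fitted log2 difference was 4.83 ± 0.26 (SE; 95% confidence interval 4.24 to 5.42), or 28.4-fold. The log2 difference lay between 4.56 and 5.05 under all 18 alternative settings and between 4.64 and 5.05 when 1 library was left out. In bulk RNA a gene that is higher in each cell and a gene that is on in more cells cannot be told apart.

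**Figure D1:**
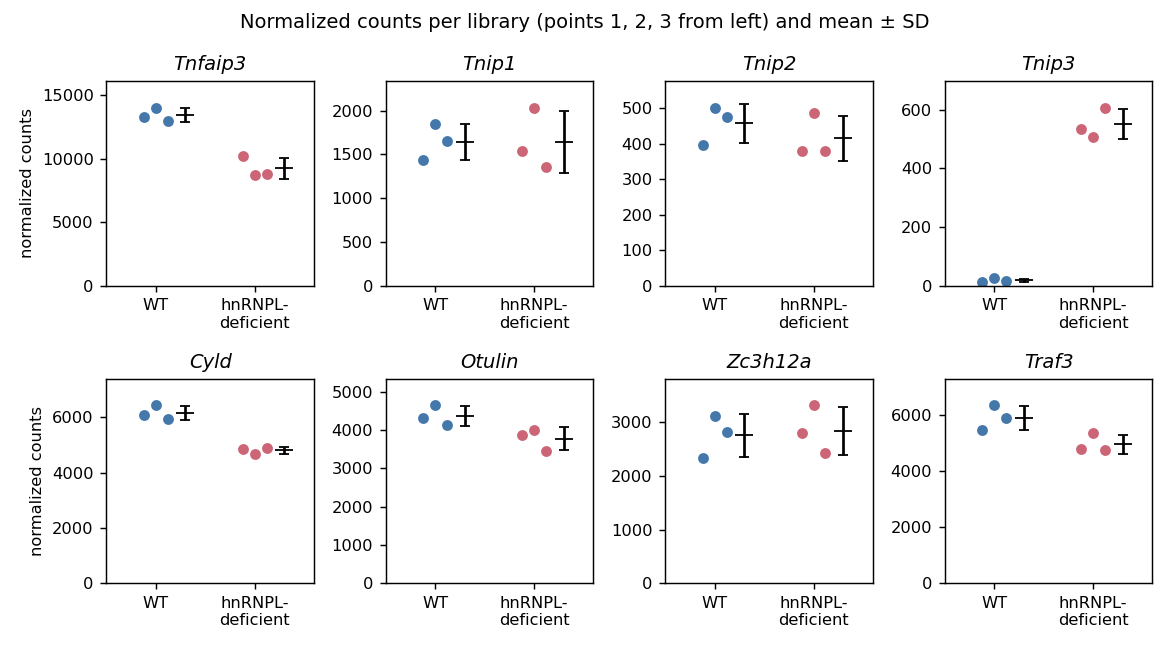
Normalized counts (linear axes from 0, 1 panel and scale for each gene) of the 8 members in the 3 WT (blue) and 3 hnRNPL-deficient (red) libraries, with each point a library and black bars the mean ± SD. The Tnip3 points run from 13.9 to 25.1 in WT and from 509 to 607 in hnRNPL-deficient libraries, while the points of Tnip1, Tnip2 and Zc3h12a overlap between groups.

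The other ABIN genes did not share this pattern. Tnip1 (ENSMUSG00000020400.17, chr11:54910785-54962917, minus strand) encodes ABIN-1, the broadly expressed family member that restrains TNF-driven cell death and autoimmunity. Its normalized counts were 1433, 1846 and 1656 in WT and 1535, 2032 and 1356 in hnRNPL-deficient libraries. The groups overlapped completely, with both the highest and the lowest library in the hnRNPL-deficient group. The means were 1645 ± 207 and 1641 ± 351 (SD, n = 3 each), and the log2 difference was -0.02 ± 0.17 (SE; 95% interval -0.40 to 0.37).

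Tnip2 (ENSMUSG00000059866.13, chr5:34496087-34513991, minus strand) encodes ABIN-2, which also stabilises the kinase TPL2. Its normalized counts were 396, 501 and 475 in WT and 379, 488 and 380 in hnRNPL-deficient libraries. The first and the third hnRNPL-deficient libraries lay just below the lowest WT library, while the second lay between the 2 highest WT libraries. The log2 difference was -0.14 ± 0.17 (SE; 95% interval -0.53 to 0.24).

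Levels of different genes were compared as normalized counts per kilobase of annotated exon. On that scale Tnip3 stood at 1.73 in WT cells and at 50.4 without hnRNPL, which moved it from the 1.01 to the 25.4 percentile of the tested genes. Tnip1 stood at 465 and 464, and Tnip2 at 170 and 155. Tnip3 thus stayed the least abundant of the 3 ABIN mRNAs in both genotypes.

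Of the summed ABIN mRNA per kilobase, Tnip3 made up 0.23%, 0.323% and 0.249% in WT, against 7.86%, 5.81% and 9.59% without hnRNPL. The share was low in all WT libraries and higher in all hnRNPL-deficient ones, at a mean of 0.268% ± 0.0490 against 7.75% ± 1.89 (SD, n = 3 each). Tnip1 remained the major ABIN mRNA, with a mean share of 73.0% in WT and 69.0% in hnRNPL-deficient libraries, and Tnip2 went from 26.8% to 23.2%. The summed level was 637 ± 78.9 and 669 ± 118 normalized counts per kilobase (SD, n = 3 each), and the groups overlapped. Dividing by the longest annotated transcript in place of all exons gave a Tnip3 share of 0.513% in WT and of 13.9% without hnRNPL.

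**Figure D2:**
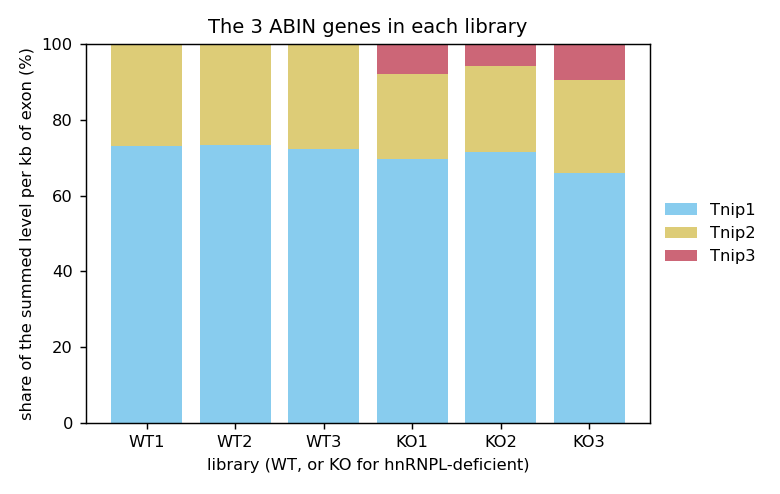
Share (%) of Tnip1, Tnip2 and Tnip3 in the summed ABIN mRNA level per kilobase of exon, with 1 stacked bar for each library. Tnip1 fills most of every bar, and Tnip3 is too thin to see in the WT bars (0.268% on average) but takes 5.81% to 9.59% of the hnRNPL-deficient bars.

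Tnfaip3 (ENSMUSG00000019850.11, chr10:19000910-19015657, minus strand), the gene of A20, was lower in hnRNPL-deficient cells. Its normalized counts were 13311, 14022 and 12977 in WT and 10228, 8725 and 8801 in hnRNPL-deficient libraries, so every hnRNPL-deficient library lay below every WT library. The means were 13437 ± 534 and 9251 ± 847 (SD, n = 3 each), a log2 difference of -0.54 ± 0.10 (SE; 95% interval -0.77 to -0.32), or 1.46-fold. The Tnfaip3 level per kilobase was 2.95 ± 0.332 times the summed ABIN level in WT and 1.96 ± 0.401 times in hnRNPL-deficient libraries (SD, n = 3 each). The lowest WT ratio, 2.73, was above the highest hnRNPL-deficient one, 2.27.

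Of the deubiquitinases, Cyld (ENSMUSG00000036712.15, chr8:88697028-88751945, plus strand) had normalized counts of 6097, 6429 and 5931 in WT and 4841, 4676 and 4888 in hnRNPL-deficient libraries. The hnRNPL-deficient libraries were close to each other and all below WT, with means of 6153 ± 254 and 4802 ± 111 (SD, n = 3 each) and a log2 difference of -0.36 ± 0.09 (SE; 95% interval -0.55 to -0.16). Otulin (ENSMUSG00000046034.8, chr15:27542635-27630693, minus strand), whose product cuts linear ubiquitin chains only, had 4326, 4646 and 4142 in WT and 3869, 4013 and 3449 in hnRNPL-deficient libraries. The groups did not overlap, but the log2 difference of -0.21 ± 0.10 (SE) had a 95% interval of -0.44 to 0.02. Otulin overlaps Ank, a gene on the opposite strand, and the reads were counted by strand.

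Traf3 (ENSMUSG00000021277.16, chr12:111166370-111267153, plus strand) had normalized counts of 5474, 6358 and 5898 in WT and 4807, 5356 and 4752 in hnRNPL-deficient libraries. Each hnRNPL-deficient library lay below the lowest WT library, by a narrow margin for the second, and the log2 difference was -0.25 ± 0.10 (SE; 95% interval -0.48 to -0.02). Zc3h12a (ENSMUSG00000042677.7, chr4:125118423-125127840, minus strand) had 2336, 3120 and 2810 in WT and 2793, 3313 and 2421 in hnRNPL-deficient libraries. These groups overlapped, and the log2 difference was 0.04 ± 0.15 (SE; 95% interval -0.30 to 0.39).

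**Figure D3:**
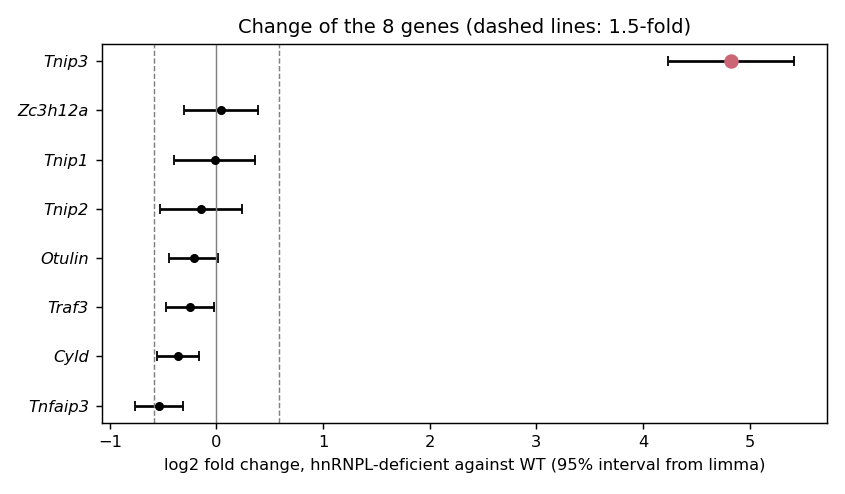
Log2 difference of hnRNPL-deficient against WT libraries for the 8 members, with 95% confidence intervals from limma. Tnip3 stands at 4.83, far to the right of the other 7, which lie between -0.54 (Tnfaip3) and 0.04 (Zc3h12a).

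Read across the members, 2 differences were above 0 and 6 below, with a median log2 difference of -0.18, beside -0.03 over all genes tested. A gene was called changed at an adjusted p (limma, Benjamini-Hochberg over all genes tested) under 0.1 and a fold of at least 1.5. By this rule 1 of the 8 members, Tnip3, was called higher, where 7.28% of all genes tested were, and 0 were called lower, where 4.08% were. With no limit on the fold, Tnfaip3 and Cyld passed as lower (7.97% of all genes) and Tnip3 as higher (10.0%). The WT and hnRNPL-deficient libraries did not overlap for 5 of the 8 members, where this held for 34.0% of all genes. Since the members were chosen from this same contrast, nothing is read from these counts. Tnfaip3 passed the fold limit, and so was called lower, when the first hnRNPL-deficient library was left out (log2 difference -0.62), and Cyld no longer passed the adjusted p without the second WT or the second hnRNPL-deficient library.

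Among themselves, the members followed the libraries as well as the genotype. All 8 were highest, within WT, in the second WT library. Within the hnRNPL-deficient group, Tnip1, Tnip2, Otulin, Zc3h12a and Traf3, with a GC content of 52.9% to 57.8% in the longest transcript, were highest in the second library. Tnfaip3, Cyld and Tnip3, with a GC content of 36.7% to 47.1%, were lowest there. The deviation of that library from its group mean had a Spearman correlation of 0.39 with GC content across 17589 genes. It was 0.04 for the first and -0.37 for the third hnRNPL-deficient library, and -0.24, 0.18 and 0.22 for the WT libraries. The second WT library, where all 8 members were highest, was thus not the WT library with the highest correlation. These correlations are across genes of 1 library and describe the libraries only. With GC content and exon length fitted in each library, the log2 differences were 4.61 for Tnip3, -0.53 for Tnfaip3, -0.42 for Cyld, -0.19 for Traf3, -0.19 for Otulin, -0.15 for Tnip2, 0.06 for Zc3h12a and 0.02 for Tnip1. Only Tnip1, near 0, changed sign with this correction.

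By level per kilobase in WT, Otulin was highest at 2582, followed by Tnfaip3 at 1860, Zc3h12a at 956, Traf3 at 804, Cyld at 489, Tnip1 at 465, Tnip2 at 170 and Tnip3 at 1.73 normalized counts per kilobase. The ranges of the 3 WT libraries overlapped for Zc3h12a and Traf3 and for Cyld and Tnip1, so these neighbours were not separated beyond their spread. All other neighbours were separated in WT. In hnRNPL-deficient cells Otulin at 2231, Tnfaip3 at 1280 and Zc3h12a at 986 kept their places, Tnip1 at 464 came above Cyld at 382, and Tnip3 at 50.4 was still the lowest. The ranges of Tnip1 and Cyld also overlapped in the hnRNPL-deficient libraries, so their exchange lies within the spread. Their order also depends on the length used. The longest transcript of Cyld has 8022 bases against 12576 of annotated exon, and that of Tnip1 has 2973 against 3539.

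The genes around Tnip3 were then examined to see whether the difference extended along the chromosome. Ndnf, which encodes a secreted neuron-derived factor, is the next gene after Tnip3 on the same strand and lies 37.5 kb away. Its normalized counts were 1.16, 6.92 and 4.59 in WT and 150, 119 and 162 in hnRNPL-deficient libraries, so the groups were as far apart as for Tnip3. The means were 4.22 ± 2.90 and 144 ± 22.0 (SD, n = 3 each), and the log2 difference was 4.97 ± 0.49 (SE; limma, adjusted p = 9.2e-04). Genes were tested at a mean of at least 10 normalized counts over all 6 libraries. Ndnf passed this filter only through its hnRNPL-deficient libraries, so its adjusted p is a description.

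On the other side, Gm18913, a processed pseudogene 91.4 kb before Tnip3, had normalized counts of 216, 148 and 151 in WT and 147, 84.8 and 152 in hnRNPL-deficient libraries. Its groups overlapped (log2 difference -0.44 ± 0.28, SE; limma, adjusted p = 0.352). C130060K24Rik at 67.2 kb and Gm18716 at 108 kb before Tnip3, and the antisense gene Gm16838 at 135 kb after it, were at 0 in all libraries, and Gm15490, a pseudogene at 124 kb, was not tested. Of the 8 other genes tested within 1000 kb on either side of Tnip3, Ndnf was the 1 called higher and 0 were called lower. Since Ndnf was tested only through the group in which it was high, nothing is read from this count. The annotated gene starts 65.1 kb before the RefSeq start whose promoter is printed above, and the gene-level values do not say which start was used.

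**Figure D4:**
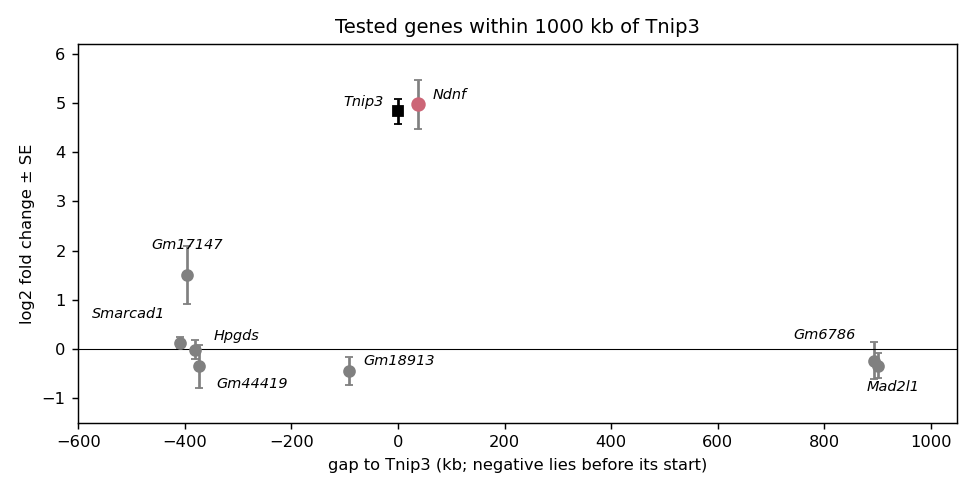
Log2 difference of hnRNPL-deficient against WT libraries (bars, SE) for the tested genes within 1000 kb of Tnip3, plotted by the gap to Tnip3 in kb, with Tnip3 as a black square and the called gene in red. Tnip3 (4.83) and Ndnf (4.97) stand together above the other 7 genes.

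Among the 3 nearest genes on each side of the other 7 members, 23 of 42 were tested, and 1 was called higher and 2 lower, where 7.28% and 4.08% of all genes tested were, so nothing is read from these counts. Nod2, a receptor for bacterial cell-wall fragments that lies 8.55 kb before Cyld, had 262, 282 and 301 normalized counts in WT and 96.5, 153 and 145 in hnRNPL-deficient libraries. It was lower in all hnRNPL-deficient libraries (log2 difference -1.12 ± 0.22, SE; limma, adjusted p = 0.0164). Snx20, a sorting nexin gene 60.9 kb from Cyld, was called higher (log2 difference 0.60, limma, adjusted p = 0.0247), but fell below the fold limit without the second WT, the third WT or the third hnRNPL-deficient library (0.52, 0.57 and 0.51). Lyrm7, a gene for a mitochondrial assembly factor 49.9 kb from Tnip1, was called lower (log2 difference -0.65, limma, adjusted p = 0.0227) but not without the third WT library (adjusted p = 0.109).

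The genes most like Tnip3 were found by the root mean square difference of their log2(normalized count + 1) from that of Tnip3 over the 6 libraries, each gene being centred on its WT mean. The nearest was Zfp750, a zinc-finger transcription factor known from epidermal differentiation, at 0.313. Its normalized counts were 3.48, 6.05 and 3.82 in WT and 210, 203 and 152 in hnRNPL-deficient libraries. Ckmt1, a mitochondrial creatine kinase gene, followed at 0.373, with 0 in all WT libraries and 30.7, 16.2 and 24.7 in hnRNPL-deficient libraries, at least 8.54-fold higher against a floor of 3 reads in each WT library. Ndnf, the neighbour of Tnip3, came next at 0.375. The other 7 members were at 3.39 to 3.81 by this measure, which placed them between rank 7365 and rank 15725 of the genes tested. With each gene centred on its WT mean, the distance mostly restates the genotype difference by which Tnip3 was chosen. Nothing is therefore read from these distances.

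A further 85 genes that work with the members, 77 of them tested, were described in 9 lists. The lists were chosen with earlier results of these data known, so their counts are descriptions. Of the 77 genes, 5 were called higher and 11 lower, where 7.28% and 4.08% of all genes tested were, and the median log2 difference was -0.06, beside -0.03 over all genes. Without the second hnRNPL-deficient library 3 were called higher, and without the third 6 were called lower. No member of the A20 partner list (3 of 3 tested) was called, and Tax1bp1, an adaptor that brings A20 to its substrates, had 6109, 5808 and 5681 normalized counts in WT and 8132, 7449 and 7829 in hnRNPL-deficient libraries. These groups did not overlap, but the log2 difference of 0.41 ± 0.09 (SE; limma, adjusted p = 0.0217) was under the fold limit. None of the 3 tested A20-like OTU deubiquitinases was called, the furthest being Zranb1 at 0.31 (limma, adjusted p = 0.146).

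Of the 8 genes of linear ubiquitin, which include the LUBAC ligase and its readers, 1 was called higher and 0 lower. Over all genes tested these shares were 7.28% and 4.08%. Spata2l, a relative of the adaptor that links CYLD to LUBAC, had 70.8, 104 and 126 normalized counts in WT and 169, 222 and 175 in hnRNPL-deficient libraries (log2 difference 0.94 ± 0.26, SE; limma, adjusted p = 0.0524). It was not called without the first WT, the second WT or the second hnRNPL-deficient library (adjusted p = 0.105, 0.114 and 0.149). None of the 13 genes of the K63 ubiquitin and kinase list was called, and Tab1, a subunit of the TAK1 kinase complex, stood furthest at 0.38 (limma, adjusted p = 0.307), or 0.14 without the first WT library. Chuk, the gene of the kinase IKK-alpha, named after its values were seen, was the 1 gene of this list under the adjusted p threshold. It had 3730, 3658 and 3376 normalized counts in WT and 2833, 2697 and 2848 in hnRNPL-deficient libraries. It was lower in each of the latter, with a log2 difference of -0.36 ± 0.09 (SE; limma, adjusted p = 0.0408), under the fold limit.

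In the list around TRAF3 and NIK, 7 of 9 tested genes lay below 0, where 9304 of 17640 genes tested did, with a median log2 difference of -0.31. Beside the 7.28% and 4.08% of all genes called higher and lower, 0 were called higher here and 1 was called lower. This was Tnfrsf13c, the BAFF receptor gene that signals survival in mature B cells, with 35825, 18795 and 21540 normalized counts in WT and 13929, 10942 and 15553 in hnRNPL-deficient libraries. All hnRNPL-deficient libraries lay below WT, and the first WT library was well above the other two (log2 difference -0.87 ± 0.23, SE; limma, adjusted p = 0.0478). It was not called without the second hnRNPL-deficient library (adjusted p = 0.125).

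Of 10 tested genes listed as mRNA targets of Regnase-1, 4 were called higher and 2 lower, where 7.28% and 4.08% of all genes tested were. The median log2 difference was 0.30, beside -0.03 over all genes. The Zc3h12a level given above was near equal between the groups, and a part of Regnase-1 in these differences was not tested. Ptgs2, the inducible cyclooxygenase of prostaglandin synthesis, had 12.8, 14.7 and 21.4 normalized counts in WT and 122, 123 and 115 in hnRNPL-deficient libraries, a clear separation (log2 difference 2.84 ± 0.29, SE; limma, adjusted p = 0.00105). The inflammatory cytokine gene Il6 had 614, 407 and 374 in WT and 1779, 932 and 1631 in hnRNPL-deficient libraries. It was higher in all of the latter, least so in the second (log2 difference 1.62 ± 0.27, SE; limma, adjusted p = 0.00855). Ctla4, an inhibitory receptor gene, was low throughout, at 22.0 to 28.5 in WT and 48.7 to 70.7 in hnRNPL-deficient libraries (log2 difference 1.21, limma, adjusted p = 0.0313), and was not called without the third WT or the second hnRNPL-deficient library (adjusted p = 0.105 and 0.106). Tfrc, the transferrin receptor gene, was called lower at -0.65 (limma, adjusted p = 0.0473), but not without the first WT library (log2 difference -0.45) or without the second or the third hnRNPL-deficient library (adjusted p = 0.121 and 0.118).

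Of 21 tested genes known to respond to NF-kB, 16 lay below 0, where 9304 of 17640 genes tested did, with a median log2 difference of -0.32. In this list 1 gene (Il6) was called higher and 5 were called lower, beside the 7.28% and 4.08% of all genes. Bcl2a1d and Bcl2a1b encode A1, an anti-apoptotic BCL2 relative. Bcl2a1d had 10453, 8777 and 8466 normalized counts in WT and 4358, 3490 and 4934 in hnRNPL-deficient libraries (log2 difference -1.12 ± 0.14, SE; limma, adjusted p = 0.00289). Bcl2a1b had a log2 difference of -0.71 ± 0.12 (SE; limma, adjusted p = 0.00940), but these paralogs are nearly identical in sequence, so how their reads divide between them is uncertain. The chemokine gene Ccl3 was low, at 39.8 to 81.2 in WT and 12.3 to 24.3 in hnRNPL-deficient libraries (log2 difference -1.42, limma, adjusted p = 0.0549). It was not called without the first WT, the third WT or the third hnRNPL-deficient library (adjusted p = 0.138, 0.129 and 0.123).

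The last list held genes of the TNF-receptor death complex, which A20 and ABIN-1 hold in check, and of necroptosis. Of its 8 tested genes 2 were called lower and 0 higher, where 4.08% and 7.28% of all genes tested were. The 2 called genes, Mlkl and Zbp1, belong to necroptosis and not to the receptor complex itself. The receptor gene Tnfrsf1a did not exceed 2.59 normalized counts in any library and was not tested. Mlkl, the pore-forming protein of necroptosis, had 1012, 698 and 703 normalized counts in WT and 519, 512 and 417 in hnRNPL-deficient libraries (log2 difference -0.72 ± 0.18, SE; limma, adjusted p = 0.0389). The first WT library was the highest, and without it the log2 difference was -0.54, under the fold limit. Zbp1, a nucleic acid sensor that can start necroptosis, had 5876, 5652 and 5647 in WT and 3726, 3814 and 3779 in hnRNPL-deficient libraries. The libraries of each group were close to each other, with a log2 difference of -0.60 ± 0.08 (SE; limma, adjusted p = 0.00396), just past the fold limit, and -0.58 without the first WT library, just short of it.

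**Figure D5:**
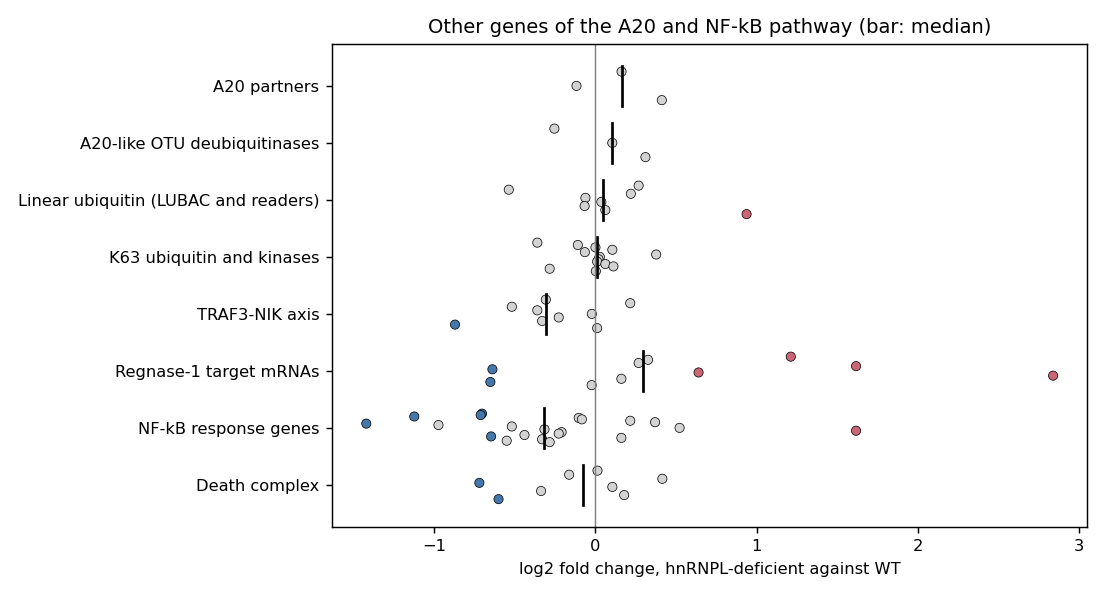
Log2 difference of hnRNPL-deficient against WT libraries for each tested gene of 8 of the 9 pathway lists, with genes called higher in red, genes called lower in blue and a black bar at each list's median. The medians run from -0.32 (NF-kB response genes) to 0.30 (Regnase-1 target mRNAs).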

How the data were processed

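Poly(A) RNA was sequenced from 3 WT and 3 hnRNPL-deficient samples. Per the labels and the study's methods, the authors trimmed reads with fastp 0.23.1, aligned them with STAR 2.7.9a to mm10 and counted them per gene and strand with featureCounts on GENCODE genes. The deposited values are read counts divided by DESeq2 1.38.2 size factors (a signal value that is not a raw count), and every value in all 6 libraries was a whole multiple of the library's smallest value to within 0.01 reads. The table also holds the authors' comparison columns (a deposited mean signal, log2 fold change and its error, a test score, p-values and a category), which were not used. Depth was 40395186 to 75180749 reads on genes. Counting intervals cover counting error only.

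Values were tested as log2(normalized count + 1) with limma 3.58.1 (trend, R 4.3.3) in genes with a mean of at least 10, so fold changes of low genes are understated. P-values were adjusted by the Benjamini-Hochberg method over 17640 genes, and genes were called at an adjusted p under 0.1 and at least 1.5-fold. The groups were taken from the genotype labels, with 3 mice each. The same fit was tested on simulated data. Members and pathway lists were chosen with earlier results of these data known. Of each list the called genes were named, up to 4 by size, or else the gene with the largest difference, with the neighbours of the members and the 3 genes most like Tnip3. Replicate numbers were not used as pairs in the main fit, and whether they pair the samples is not known. The correlations of same-numbered deviations were 0.43, 0.32 and 0.07, and 0.43 and 0.32 were the highest of any WT and hnRNPL-deficient pair. Coordinates, exon lengths and GC content came from GENCODE on GRCm38, in an earlier release than the authors', where 17615 of the tested genes were found. Promoters came from RefSeq GRCm38.p6. Alternatives were other pseudocounts, filters, scalings and thresholds, no trend, a replicate block and leaving out each library, and, chosen after seeing the data, sex as a covariate, a GC and length correction, and edgeR 4.0.16 and DESeq2 1.42.0 on the recovered reads. Of the 9 pathway lists, 1 enters the summed counts only and is not reported here by itself.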

Additional observations from a re-analysis of the deposited data

How the results depend on the processing

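Tnip3 was called higher under all 18 alternatives, and of the members no other was called higher and none lower, except Tnfaip3 without the first hnRNPL-deficient library. The members were chosen from this same contrast in the same 6 libraries, so these calls are descriptions and no independent test. At an adjusted p under 0.05 and at least 2-fold, 610 genes were called higher and 216 lower, and of the pathway genes 3 were called higher and 1 lower, since these thresholds are stricter. Leaving out 1 library at a time gave 830 to 1111 genes called higher and 478 to 696 lower, beside 1284 and 719 with all 6 libraries, with both lowest counts without the third WT library, 1 to 1 members higher and 0 to 1 lower, and 3 to 5 pathway genes higher and 6 to 11 lower. With the replicate block 1755 genes were called higher and 1018 lower, with 1 member higher and 0 lower and 5 pathway genes higher and 12 lower. With this block the adjusted p (limma) of Traf3 and Otulin also came under 0.1, at 0.0519 and 0.0885, with both under the fold limit. Whether the replicate numbers pair the samples is not known. The first and the second WT library correlated best with the same-numbered hnRNPL-deficient library. The third WT library correlated best with the second hnRNPL-deficient library. On the recovered reads edgeR called 1413 genes higher and 659 lower, and DESeq2 1412 and 795. Of the named genes, Tnfrsf13c and Tfrc were not called without the trend (adjusted p = 0.117 and 0.116), and quantile normalization put Tfrc and Zbp1 under the fold limit, as equal totals and edgeR did Zbp1. Tnip1 and Zc3h12a, both near 0, changed sign in 6 and 2 alternatives. The level of Tnip3 in WT rests on 12 to 29 reads a library.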
